A study of Mus musculus with 9 samples.

Results

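The 10 genes described here belong to the regulated secretory pathway and were followed across 9 libraries from mouse brain: the granins Scg2, Vgf, Chga, Chgb, Scg3 and Scg5, and the peptide-processing enzymes Pcsk1, Pcsk2, Cpe and Pam. They were chosen by symbol from a count table of 54838 genes, each symbol matched 1 row, and all 10 were among the 16410 genes that passed the filter on low counts. The study's title places the cells in the paraventricular hypothalamus, in work on visceral and somatic pain, and its design text contrasts cells carrying a CRD label, a VFF label or both. The libraries are labelled overlap, cfos and mCherry, with 3 of each, and all are labelled as neurons from brain. Which of the cfos and mCherry labels stands for CRD and which for VFF is not given in the sources used here, nor are strain, age, sex, stimulus, labelling virus or driver, or how many animals were pooled. The cells were cut out by laser capture and lysed, and the Smart-3SEQ protocol used on the lysate reads out transcript 3′ ends.

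Neurons that release peptides pack them into dense-core granules. Granins aggregate in the trans-Golgi network as the granule forms, and several are themselves cut into peptides. Inside the granule the prohormone convertases PC1/3, made from Pcsk1, and PC2, made from Pcsk2, cut precursors at pairs of basic residues. Carboxypeptidase E, made from Cpe, then trims the exposed basic residues, and Pam amidates peptides that end in glycine. In the paraventricular hypothalamus this route makes vasopressin, oxytocin, corticotropin-releasing hormone and thyrotropin-releasing hormone. Scg2, Vgf and Pcsk1 are also known as genes whose transcription follows neuronal activity and cyclic AMP, while Chga and Cpe are more usually abundant across neuroendocrine cells.

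In every overlap library the transcripts of Scg2, Vgf, Scg3 and Pcsk1 stood above all mCherry libraries. Those of Chga and Cpe stood below all mCherry libraries. Of these, Scg3 and Chga had an unadjusted p above 0.05 (edgeR). In the cfos libraries all 10 transcripts had a fitted level above the mCherry libraries, as had 50.9% of all genes, though Cpe stood below (-0.085 on the log2 scale) without cfos 2 and cfos 3. Scg2, Vgf and Pcsk1 had log2 differences of 2.33, 2.81 and 4.07 there; without cfos 1 that of Scg2 was 1.38, below the 1.57 of Chgb. Set against the cfos libraries, the overlap libraries were lower for Chga, Chgb and Cpe, while the fitted log2 differences of Vgf, Scg3 and Pcsk1 were 0.30, 0.07 and -0.29 with standard errors of 0.56 to 1.27. None of these differences passed a false discovery threshold of 0.05 in the edgeR quasi-likelihood fit over all genes, so each is given below with its values and its error.

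Depth and independence of the libraries limit what can be said. Total counts ran from 504785 to 597898 in overlap, from 700556 to 3414593 in cfos and from 877257 to 978877 in mCherry libraries. In every gene the cfos 2 count was at most the cfos 3 count, and the chi-square between them averaged 0.824 for a gene, where the 35 remaining pairs of libraries gave 9.08 to 58.5. They differed by less than the sampling noise and were counted as 1 sample, which leaves 2 cfos replicates. No gene had an mCherry 2 count above that of mCherry 1 and mCherry 3 added together, while mCherry 1 exceeded the sum of the other mCherry libraries in 7006 genes and mCherry 3 did so in 5226. The mCherry libraries are therefore not independent, and p-values against mCherry are too small. Log2 differences of overlap from mCherry without mCherry 2 are given below for Scg2, Vgf and Cpe only. For Pcsk1 a count ratio and a share without mCherry 2 are given. The labels name no animals, so the p-values speak only of how these libraries spread. Fos, the gene behind the cfos label, had 72.4, 209 and 282 CPM (counts scaled to library size with edgeR's TMM factors) in overlap libraries, 286, 23.5 and 25.8 CPM in cfos libraries and 30.9, 21.3 and 11.3 CPM in mCherry libraries. Thus cfos 2 and cfos 3 lay at the mCherry level of Fos RNA, which goes against a plain reading of their label. All 9 neuron markers were detected in each library, with summed levels of 1115 to 1428 CPM in overlap, 2263 to 3383 CPM in cfos and 1740 to 2221 CPM in mCherry libraries. Glial transcripts were present too: astrocyte markers summed to 841 to 936 CPM in overlap, 1389 to 3948 CPM in cfos and 1170 to 1324 CPM in mCherry libraries. Oligodendrocyte markers summed to 402 to 1760, 4514 to 6800 and 1278 to 2411 CPM in the same order of groups. Fewer cells of a type and less RNA per cell cannot be told apart in such samples.

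The upstream sequences of the genes show where the cyclic AMP response element (CRE), the palindrome TGACGTCA bound by CREB, is found in this family. RefSeq windows of GRCm38.p6, from 250 bases before to 50 bases after a transcript start, were found for 8 of the 10 genes, and none was found for Vgf and Cpe. The full CRE occurred in 3 of the 8, Scg2, Chgb and Pcsk1, against 2.03% of 27025 genes and 1.79% of their 32851 windows of the same length. The 120 bases before the start of each are printed because they hold that element, and those of Chga because it carries only the shorter core TGACG. Capitals mark the CRE or its core.
Scg2, chr1:79440027-79440146, minus strand: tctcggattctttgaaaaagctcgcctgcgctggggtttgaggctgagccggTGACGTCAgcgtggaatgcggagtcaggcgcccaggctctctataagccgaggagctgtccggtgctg
Chgb, chr2:132781522-132781641, plus strand: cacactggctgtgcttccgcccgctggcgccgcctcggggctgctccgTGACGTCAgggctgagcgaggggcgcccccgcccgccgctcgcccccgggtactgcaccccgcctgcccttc
Pcsk1, chr13:75089737-75089856, plus strand: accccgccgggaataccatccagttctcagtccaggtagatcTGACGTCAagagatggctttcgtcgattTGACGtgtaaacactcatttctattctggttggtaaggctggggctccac
Chga, chr12:102554821-102554940, plus strand: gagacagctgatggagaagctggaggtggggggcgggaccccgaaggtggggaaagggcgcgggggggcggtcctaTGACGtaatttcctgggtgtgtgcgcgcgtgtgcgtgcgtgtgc

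The full CRE began 68 bases before the start in Scg2, 72 bases before it in Chgb and 78 bases before it in Pcsk1. Pcsk1 held a second core 50 bases before its start, and the core of Chga began 44 bases before its start. Searched on both strands and counted also where it forms part of a full CRE, TGACG was found in 7 of the 8 genes, all but Pam. Over all genes the share was 23%, and over all windows 20.8%. The Egr motif GCGNGGGCG was found in Chgb and Pcsk2, against 6.27% of genes and 5.55% of windows. The AP-1 motif TGANTCA was found in none of the 8, against 8.97% of genes and 7.81% of windows. A match describes these letters only. The GENCODE M21 start lies 94 bases upstream of the RefSeq start for Scg2, 364 bases upstream for Chgb and 31 bases upstream for Pcsk1, so part or all of these 3 stretches falls inside the GENCODE gene. For Chga the GENCODE start lies downstream of the RefSeq start, and none of its stretch falls inside the gene. Of the genes with the full CRE, the fitted log2 differences for cfos against mCherry were 2.33 ± 0.51 for Scg2, 1.85 ± 0.85 for Chgb and 4.07 ± 1.37 for Pcsk1 (SE). For overlap against mCherry they were 1.23 ± 0.46, -0.80 ± 0.79 and 3.78 ± 1.31. The genes with only the core, Chga, Scg3, Scg5 and Pcsk2, had 0.97, 0.69, 1.25 and 0.41 for cfos against mCherry. For overlap against mCherry these genes had -0.98, 0.76, -0.49 and -0.41. Whether the element has a part in these values was not tested.

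**Figure D1:**
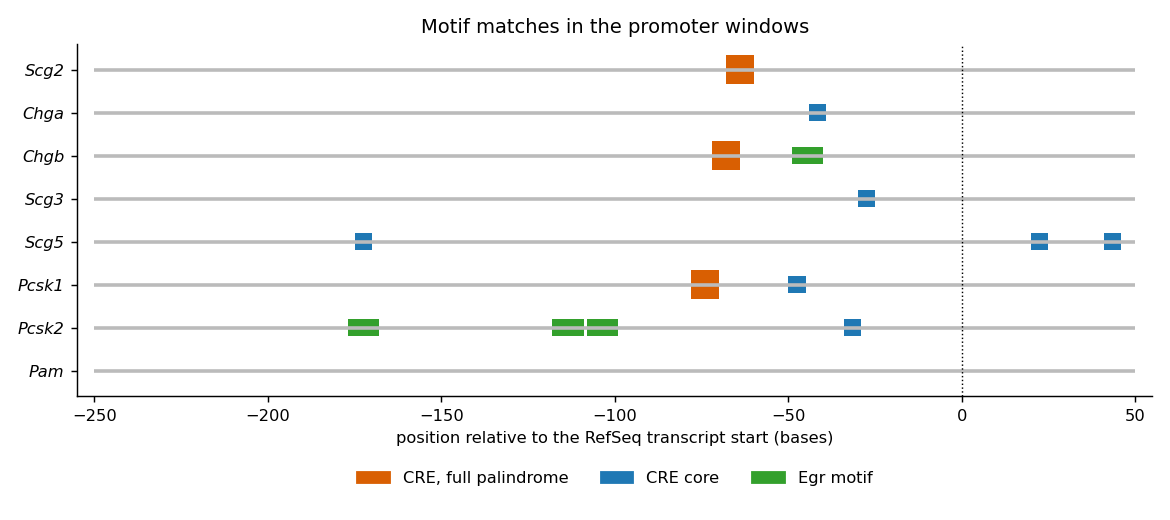
Motif matches along the RefSeq promoter windows of 8 genes; the x axis gives the position in bases relative to the transcript start, grey lines are the windows and coloured boxes the matches. The full CRE lies between 61 and 78 bases before the start in Scg2, Chgb and Pcsk1, and Pam holds no match.

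Counted over the whole family, overlap against mCherry gave 0 of 10 genes past the adjusted threshold (edgeR quasi-likelihood test, Benjamini-Hochberg), as for all 16410 genes tested (0%), of which 2457 had an unadjusted p under 0.05. DESeq2 called 905 genes in that comparison, Vgf and Pcsk1 among them. At an unadjusted p under 0.05, 3 of the 10 were higher in overlap (Scg2, Vgf and Pcsk1) beside 10.1% of all genes, and 1 was lower (Cpe) beside 4.9%. The lowest overlap library exceeded the highest mCherry library for 4 of the 10, Scg2, Vgf, Scg3 and Pcsk1, beside 13.5% of all genes, and the reverse held for Chga and Cpe beside 8.88%. Leaving out overlap 2, overlap 3, mCherry 1, mCherry 2 or mCherry 3, each alone, left 2 of 10 higher at that p, Vgf and Pcsk1, and none lower. Over all genes 6.44 to 14.1% had an unadjusted p under 0.05, in either direction, in those 5 fits. In the same comparison 5 of 7 endothelial and mural markers had fitted log2 differences above 0, beside 52.3% of all genes (median 1.51, 3 at an unadjusted p under 0.05). Their summed levels were 550.4 to 754 CPM in overlap and 475 to 541 CPM in mCherry libraries. Of 8 tested markers of paraventricular neurons 7 were above 0 (median 1.16, 3 at that p), with summed levels of 466 to 1702 CPM in overlap and 352 to 641 CPM in mCherry libraries. The 3 were Pou3f2, Avp and Crh. Avp, Oxt, Crh, Trh and Sst of this list are counted again below among the peptide precursors. Of 2 tested oligodendrocyte precursor markers 2 were above 0 (median 2.32, 1 at that p). Summed levels of that list were 67.1 to 261 CPM in overlap and 25.6 to 28.6 CPM in mCherry libraries. Below 0 were 8 of 9 neuron markers (median -0.33), 8 of 8 astrocyte markers (median -0.38) and 6 of 6 oligodendrocyte markers (median -1.21). The part of these markers in the result was not tested.

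Overlap against cfos likewise had 0 of 10 past the adjusted threshold by edgeR, beside 0% of all genes, with 1942 genes at an unadjusted p under 0.05 and 893 called by DESeq2, Chga and Chgb among them. None of the 10 was higher at an unadjusted p under 0.05, beside 8.69% of all genes, and 3 were lower, Chga, Chgb and Cpe, beside 3.14%. With cfos 2 and cfos 3 averaged, the groups did not overlap for 5 genes lower in overlap libraries (Chga, Chgb, Scg5, Pcsk2 and Cpe) beside 12% of all genes, and for none higher beside 13.6%. Without cfos 1, Chga and Cpe were lower at that p and Chgb was not, beside 8.87% of all genes in either direction. The difference without cfos 1 was -1.75 for Chga, -2.41 for Chgb and -1.07 for Cpe on the log2 scale, and without cfos 2 and cfos 3 it was -1.98, -2.74 and -0.84. All 9 neuron markers tested also had fitted log2 differences below 0 in overlap against cfos, and so did all 6 oligodendrocyte markers and 5 of 8 astrocyte markers. Below 0 were also 5 of 8 markers of paraventricular neurons (median -0.17) and 4 of 7 endothelial and mural markers (median -0.11). Above 0 were 3 of 4 microglia markers (median 1.21) and 3 of 5 fibroblast markers (median 0.83). The part of these markers in the result was not tested.

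Cfos against mCherry had 0 of 10 past the adjusted threshold by edgeR, beside 0% of all genes, with 2899 genes at an unadjusted p under 0.05 and 1530 called by DESeq2, which included Scg2, Vgf and Pcsk1. At an unadjusted p under 0.05, Scg2, Vgf and Pcsk1 were higher, 3 of 10 beside 7.49% of all genes, and none was lower, beside 10.2%. The groups did not overlap for 9 genes higher in cfos, all but Scg5, beside 18.5% of all genes, and for none lower, beside 14.2%. Without cfos 1, Scg2 and Pcsk1 were higher at that p and Vgf was not, beside 13.4% of all genes in either direction. Without mCherry 2 the share of all genes at that p, in either direction, was 9.31%, against 17.7% with it. In the same comparison 8 of 9 neuron markers had fitted log2 differences above 0, beside 50.9% of all genes, with a median of 0.72. So had 7 of 8 markers of paraventricular neurons (median 1.52), 5 of 7 endothelial and mural markers (median 1.47) and 5 of 6 oligodendrocyte markers (median 1.15). The same held for 5 of 8 astrocyte markers (median 0.42) and 2 of 2 oligodendrocyte precursor markers (median 2.63). Of 4 tested microglia markers 1 was above 0 (median -0.60). The part of these markers in the result was not tested. The median log2 difference of the 10 genes was 0.16 for overlap against mCherry, -0.92 for overlap against cfos and 1.39 for cfos against mCherry, and the medians of all genes tested were 0.09, 0.12 and 0.04 for the same comparisons. The 3 comparisons share libraries, so these values are not independent of each other.

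**Figure D2:**
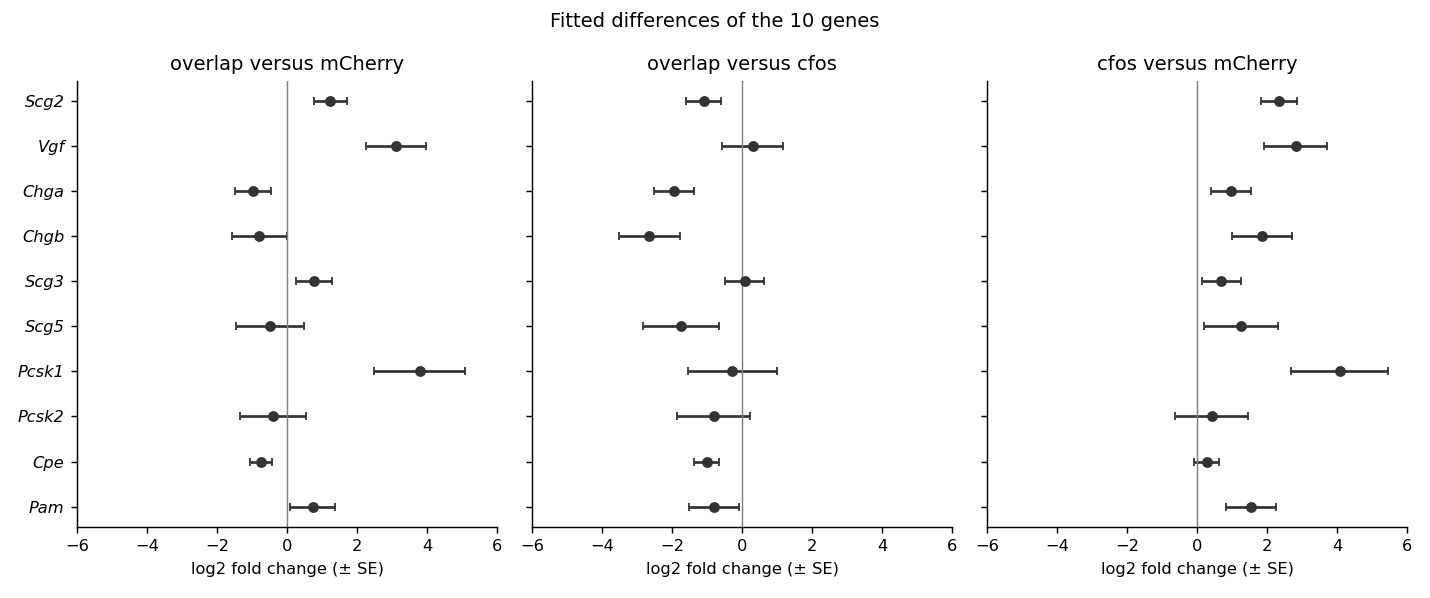
Fitted log2 fold change of each gene with its standard error in the 3 comparisons; points right of 0 are higher in the group named first. Scg2, Vgf, Scg3, Pcsk1 and Pam lie right of 0 against mCherry in overlap and cfos libraries, while all but Vgf and Scg3 lie left of 0 in overlap against cfos.

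Scg2 encodes secretogranin II, the granin precursor of the peptide secretoneurin, on chromosome 1 (GRCm38, positions 79434669 to 79440120, minus strand). Its transcript had 219, 509.7 and 400.3 CPM in overlap libraries, 1200.5, 368 and 441 CPM in cfos libraries and 162, 182 and 137 CPM in mCherry libraries. Every overlap and every cfos library lay above every mCherry library, and cfos 1 stood well above all others. The log2 difference was 1.23 ± 0.46 (SE; adjusted p = 0.290, edgeR) for overlap against mCherry and 2.33 ± 0.51 (adjusted p = 0.174, edgeR) for cfos against mCherry. Without cfos 1 the difference between cfos and mCherry was 1.38, and without cfos 2 and cfos 3 it was 2.56. Overlap stood below cfos by a fitted log2 difference of -1.10 ± 0.50 (adjusted p = 0.429, edgeR), a value that rested on cfos 1, since it was -0.18 without that library. Without mCherry 2 the difference of overlap from mCherry was 1.14.

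Vgf, on chromosome 5 (positions 137026392 to 137033351, plus strand), encodes a granin that is cut into several neuropeptides and whose transcript is known to be induced by neurotrophins and by activity. It had 234, 102 and 52.7 CPM in overlap libraries, 163, 38.5 and 53.8 CPM in cfos libraries and 18.1, 15.4 and 11.3 CPM in mCherry libraries. The lowest overlap or cfos library had more than the highest mCherry library, while the 3 overlap libraries spread widely among themselves. The mean was 129 ± 93.6 CPM in overlap (SD, n = 3), 106 ± 80.7 CPM in cfos (SD, n = 2) and 14.9 ± 3.46 CPM in mCherry libraries (SD, n = 3). Its fitted log2 difference came to 3.11 ± 0.85 (SE; adjusted p = 0.258, edgeR) for overlap against mCherry and 2.81 ± 0.89 (adjusted p = 0.238, edgeR) for cfos against mCherry. Without overlap 1 it was 2.37 for overlap against mCherry, without mCherry 2 it was 2.93, and without cfos 1 the difference of cfos from mCherry was 1.71, against 3.10 without cfos 2 and cfos 3. Overlap and cfos differed by 0.30 ± 0.88 on the log2 scale, and the sign of that difference turned without overlap 1 (-0.44) and without cfos 2 and cfos 3 (-0.18).

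Chga encodes chromogranin A, the acidic granin used as a marker of neuroendocrine granules, on chromosome 12 (positions 102554969 to 102565028, plus strand). Its transcript had 56.1, 56.2 and 46.4 CPM in overlap libraries, 234, 156 and 183 CPM in cfos libraries and 108, 117 and 88.0 CPM in mCherry libraries. The overlap libraries lay close together, below all others, and the cfos libraries lay above all others. On the log2 scale Chga differed by -0.98 ± 0.52 (SE; adjusted p = 0.412, edgeR) for overlap against mCherry, -1.94 ± 0.57 (adjusted p = 0.354, edgeR) for overlap against cfos and 0.97 ± 0.56 (adjusted p = 0.400, edgeR) for cfos against mCherry. Chga is thus placed opposite to Scg2 and Vgf in overlap against mCherry, within the same libraries.

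Chgb encodes chromogranin B, a second acidic granin that takes part in granule formation, on chromosome 2 (positions 132781278 to 132795079, plus strand). It had 34.4, 14.5 and 12.6 CPM in overlap libraries, 154, 108 and 106 CPM in cfos libraries and 29.9, 40.1 and 37.9 CPM in mCherry libraries. All cfos libraries lay far above the rest, and overlap 1 lay within the mCherry range. Overlap and cfos libraries differed by a log2 value of -2.66 ± 0.87 (SE; adjusted p = 0.368, edgeR), overlap and mCherry by -0.80 ± 0.79 and cfos and mCherry by 1.85 ± 0.85 (adjusted p = 0.290, edgeR). 

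Scg3 and Scg5 encode secretogranin III, which links chromogranin A to the granule membrane, and 7B2, the chaperone and inhibitor of PC2. Scg3, on chromosome 9 (positions 75643189 to 75684056, minus strand), had 145, 127 and 158 CPM in overlap libraries, 157, 105 and 121 CPM in cfos libraries and 109, 79.1 and 65.5 CPM in mCherry libraries. The overlap libraries lay above the mCherry libraries and among the cfos libraries, with log2 differences of 0.76 ± 0.51 (SE; adjusted p = 0.532, edgeR) from mCherry and 0.07 ± 0.56 from cfos. Scg5, on chromosome 2 (positions 113776362 to 113829121, minus strand), had 10.9, 12.7 and 23.2 CPM in overlap libraries, 78.5, 22.3 and 29.1 CPM in cfos libraries and 21.3, 27.2 and 17.4 CPM in mCherry libraries. The single columns of the groups overlapped apart from cfos 1; with cfos 2 and cfos 3 averaged to 26.4 CPM, cfos lay above overlap libraries and still overlapped mCherry libraries. Its log2 differences were -0.49 ± 0.98 for overlap against mCherry, -1.74 ± 1.08 for overlap against cfos and 1.25 ± 1.06 for cfos against mCherry (SE). Without cfos 1 they were -0.80 for overlap against cfos and 0.27 for cfos against mCherry.

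**Figure D3:**
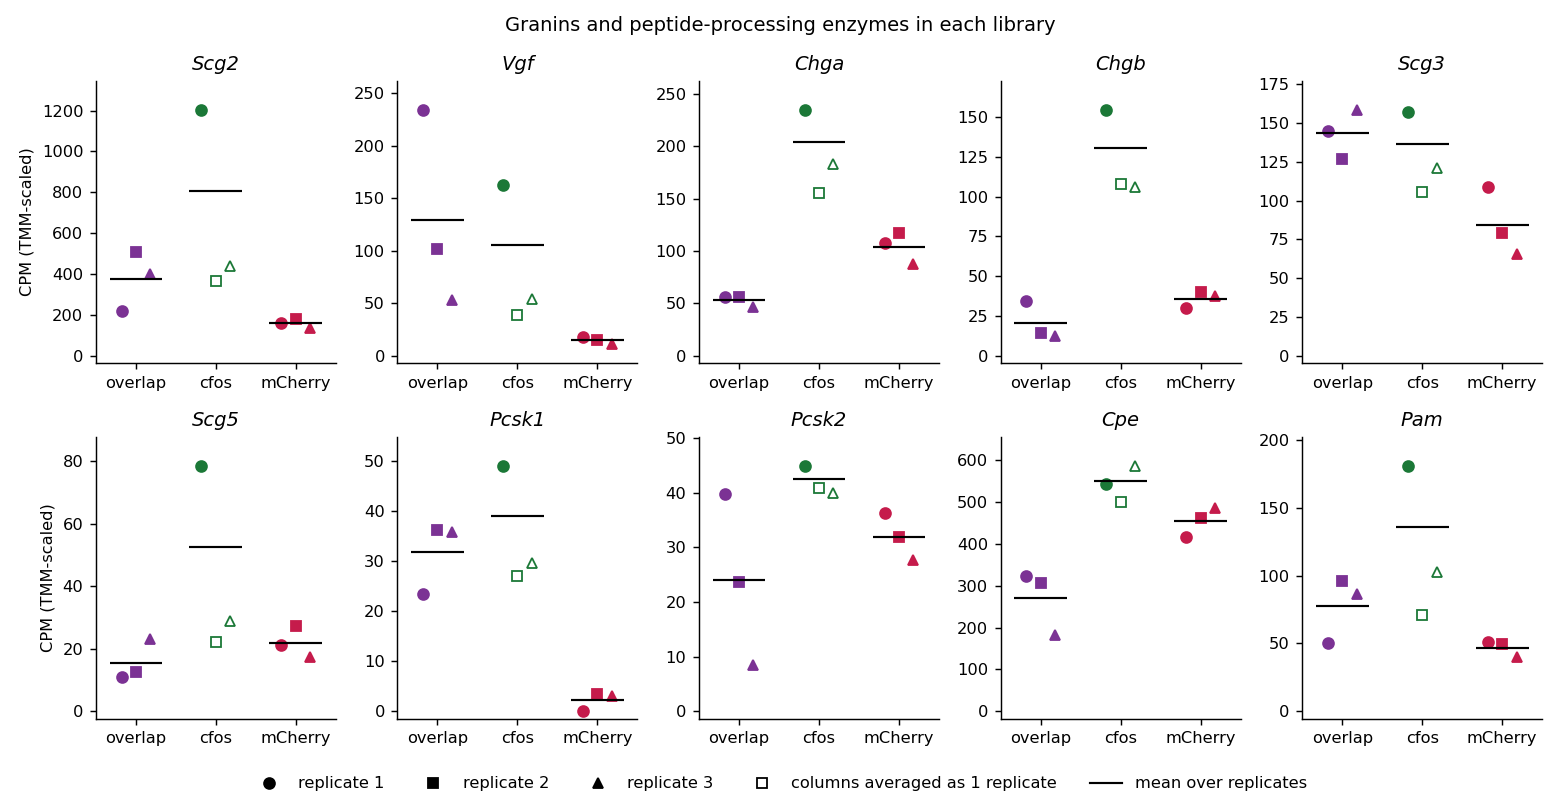
CPM of the 10 genes in each library, on linear axes; points are libraries, shapes are replicate numbers, open cfos symbols are the nested columns averaged as 1 replicate, and lines are group means. Pcsk1 lies at 0 to 3.54 CPM in mCherry libraries and at 23.5 CPM or more in all overlap and cfos libraries, and cfos 1 holds the highest Scg2 value at 1200.5 CPM.

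The convertases differed from each other in how they were placed across the groups. Pcsk1, on chromosome 13 (positions 75089826 to 75134861, plus strand), had 13, 20 and 17 counts in overlap libraries, 35, 45 and 90 counts in cfos libraries and 0, 3 and 3 counts in mCherry libraries, the lowest total of the 10 genes. In CPM this was 23.5, 36.3 and 35.8 in overlap libraries, 49.1, 27.1 and 29.7 in cfos libraries and 0, 3.54 and 3.07 in mCherry libraries, and the 0 allows up to 3.20 CPM. No overlap or cfos library came near the mCherry level. The log2 difference was 3.78 ± 1.31 (SE; adjusted p = 0.275, edgeR) for overlap against mCherry and 4.07 ± 1.37 (adjusted p = 0.250, edgeR) for cfos against mCherry, the second being 3.65 without cfos 1 and 4.03 without cfos 2 and cfos 3. Because mCherry 2 holds no gene above the sum of the other mCherry libraries, its 3 counts may not add to the 3 of mCherry 3. The ratio of summed counts per effective library size, overlap to mCherry, was 14.6 with a 95% counting interval of 6.25 to 41.6, and 20.2 with an interval of 6.53 to 101.4 when mCherry 2 was left out. The intervals are exact binomial ones and cover counting error only. Overlap and cfos differed by -0.29 ± 1.27 on the log2 scale, an error too wide to tell a difference from none.

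Pcsk2, on chromosome 2 (positions 143546156 to 143816285, plus strand), had 39.8, 23.6 and 8.43 CPM in overlap libraries, 44.9, 40.9 and 39.96 CPM in cfos libraries and 36.3, 31.9 and 27.6 CPM in mCherry libraries. The overlap libraries spread from the lowest value of the series almost to the cfos level, and mCherry lay inside that spread. Its log2 difference was -0.41 ± 0.95 (SE; adjusted p = 0.893, edgeR) for overlap against mCherry and -0.82 ± 1.04 (adjusted p = 0.820, edgeR) for overlap against cfos. The antisense gene Pcsk2os1 lies across it and had 13, 30 and 0 counts in overlap libraries, 12, 2 and 2 counts in cfos libraries and 11, 5 and 9 counts in mCherry libraries; the strand setting of the counting is not given in the sources used here, so reads of the pair cannot be told apart.

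A share within a library needs no scaling between libraries. Of the counts of both convertases, Pcsk1 made up 37.1% (95% Wilson interval 23.2 to 53.7), 60.6% (43.7 to 75.3) and 81.0% (60.0 to 92.3) in overlap libraries. It made up 52.2% (40.5 to 63.7), 39.8% (31.3 to 49.0) and 42.7% (36.2 to 49.4) in cfos libraries. In mCherry libraries it made up 0% (0 to 10.2), 10% (3.46 to 25.6) and 10% (3.46 to 25.6). All overlap and cfos libraries had a larger Pcsk1 share than all mCherry libraries. The mean was 59.6 ± 21.9% in overlap (SD, n = 3), 47.1 ± 7.26% in cfos (SD, n = 2) and 6.67 ± 5.77% in mCherry libraries (SD, n = 3). The difference was 52.9 points for overlap against mCherry and 40.4 points for cfos against mCherry, each with p = 0.1 in a two-sided exact permutation test, the smallest p that 3 libraries against 3 or 2 can give. For overlap against cfos the difference was 12.5 points with an exact permutation p of 0.5. Adjusted over the 3 comparisons with Benjamini-Hochberg, the exact permutation p-values were 0.15, 0.15 and 0.5. The mCherry libraries are not independent, so the p-values against mCherry are too small here too. Without mCherry 2 the difference was 54.6 points for overlap against mCherry (exact permutation p = 0.2, where the smallest possible is 0.1) and 42.1 points for cfos against mCherry (exact permutation p = 0.333, the smallest possible).

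The later enzymes of the route followed yet other orders. Cpe, on chromosome 8 (positions 64592542 to 64693054, minus strand), had 324, 307 and 183 CPM in overlap libraries, 543, 501 and 586 CPM in cfos libraries and 417, 461 and 485 CPM in mCherry libraries. The overlap libraries lay below all others without overlap of the groups. Fitted log2 differences of Cpe were -0.74 ± 0.32 (SE; adjusted p = 0.319, edgeR) for overlap against mCherry and -1.02 ± 0.35 (adjusted p = 0.368, edgeR) for overlap against cfos. Without mCherry 2 the difference of overlap from mCherry was -0.93, and without overlap 3 it was -0.52. Cpe is known to be expressed in astrocytes as well as neurons, and all 8 astrocyte markers and 8 of 9 neuron markers tested had fitted log2 differences below 0 in overlap against mCherry; their part in the result was not tested.

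Pam, on chromosome 1 (positions 97795114 to 98095646, minus strand), had 50.7, 96.1 and 86.4 CPM in overlap libraries, 181, 71.0 and 102 CPM in cfos libraries and 51.2, 49.6 and 39.9 CPM in mCherry libraries. Overlap 1 lay within the mCherry range and the other overlap libraries lay above it. The log2 difference was 0.73 ± 0.65 (SE; adjusted p = 0.666, edgeR) for overlap against mCherry, -0.80 ± 0.71 for overlap against cfos and 1.53 ± 0.71 (adjusted p = 0.293, edgeR) for cfos against mCherry. Several annotated genes lie within Pam, and B230216N24Rik on the same strand had 66, 121 and 19 counts in overlap, 115, 232 and 442 counts in cfos and 97, 124 and 134 counts in mCherry libraries. Gm3531, also on that strand, had 18, 50 and 64 counts in mCherry libraries, and Gm25413, on the opposite strand, had 64, 33 and 0. Neither had a count in overlap or cfos libraries. Their part in the Pam values was not tested.

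Together the 10 genes took 0.105, 0.130 and 0.0947% of all counts in overlap libraries, 0.285, 0.128 and 0.150% in cfos libraries and 0.0928, 0.0971 and 0.0911% in mCherry libraries. The family total was therefore close in overlap and mCherry libraries and highest in cfos 1, while its make-up differed. Counts of Scg2 per count of Chga, a ratio chosen after the values were seen, were 3.90, 9.06 and 8.64 in overlap libraries, 5.13, 2.36 and 2.42 in cfos libraries and 1.505, 1.56 and 1.56 in mCherry libraries. Counts of Vgf per count of Chga were 4.16, 1.81 and 1.14 in overlap libraries, 0.695, 0.247 and 0.295 in cfos libraries and 0.168, 0.131 and 0.128 in mCherry libraries. This ratio too was not planned before the values were seen. In both ratios every cfos library lay above every mCherry library. For Vgf per Chga every overlap library lay above every cfos library, and for Scg2 per Chga overlap 1 lay below cfos 1. Chga was lowest in overlap and highest in cfos libraries, which by itself raises such ratios in overlap relative to cfos. Vgf alone did not separate them, with 52.7 CPM or more in overlap and up to 163 CPM in cfos libraries. A ratio of 3′ counts between genes is read here only across libraries, not as a ratio of transcript numbers.

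**Figure D4:**
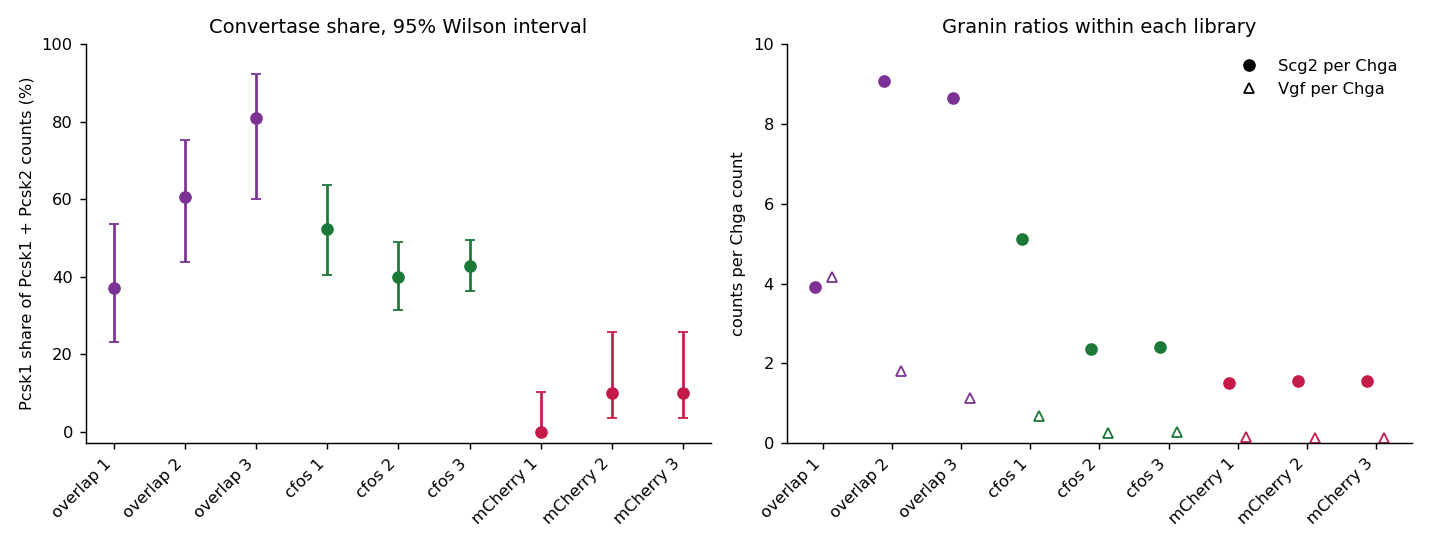
Left, Pcsk1 counts as a percentage of Pcsk1 plus Pcsk2 counts in each library with its 95% Wilson interval; right, Scg2 and Vgf counts per Chga count. The mCherry libraries sit at 0 to 10% Pcsk1 on the left and at the low end of both ratios on the right.

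The genes were also compared by the shape of their pattern over the 8 replicates, as the Euclidean distance between log2 CPM values centred on each gene's mean. Among the 10, the nearest pairs were Scg2 and Pam at 0.95 and Pcsk2 and Cpe at 0.97, followed by Chga and Cpe at 1.16, and the farthest were Pcsk1 and Pcsk2 at 5.19. Over 10800 tested protein-coding genes outside the 10, the nearest to Scg2 were Erbin at 0.55, Hmgxb4, Sidt2, Hmgn3 and Fam193b, beside a median distance of 4.11. The nearest to Vgf were Col7a1 at 0.90, Tmem176b, Gm29394, Adgrv1 and Nup214, beside a median of 4.96. The nearest to Pcsk1 were Mbd5 at 1.09, Lrba, Isg15, Spice1 and Cpsf2, beside a median of 5.34. Some of these genes had few counts. Col7a1 had 1.07, 0 and 0 CPM in mCherry libraries, and Erbin had 5.43 CPM in overlap 1, where that is 3 counts. Fam193b had 107 CPM or more in every replicate. Shared regulation was not tested. No granin or processing enzyme outside the 10 was named by this rule.

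Other enzymes of peptide maturation and breakdown were counted from lists. Of 7 other proprotein convertases and their inhibitors 5 were tested and none had an unadjusted p under 0.05 in any comparison. Pcsk1n, which encodes proSAAS, the inhibitor of PC1/3, had 18.1, 109 and 27.4 CPM in overlap libraries, 135, 56.6 and 63.4 CPM in cfos libraries and 46.9, 66.1 and 48.1 CPM in mCherry libraries. The wide spread of Pcsk1n in overlap libraries covered the mCherry range. Of 7 other trimming enzymes 4 were tested. In overlap against cfos 1 of the 4, Cpm, was higher at an unadjusted p under 0.05, beside 8.69% of all genes. Cpm, a membrane carboxypeptidase, had 132, 119.7 and 135 CPM in overlap and 0, 6.02 and 4.95 CPM in cfos libraries (adjusted p = 0.392, edgeR). In mCherry libraries Cpm had 51.2, 5.90 and 0 CPM. Of 10 peptide-degrading enzymes 9 were tested. In cfos against mCherry 1 was higher at an unadjusted p under 0.05, beside 7.49% of all genes, and 1 was lower, beside 10.2%. Ece2, a relative of endothelin-converting enzyme, was the higher one (adjusted p = 0.249, edgeR) at 23.8, 15.6 and 14.9 CPM in cfos and 1.07, 0 and 0 CPM in mCherry libraries. Mme, which encodes neprilysin, was the lower one (adjusted p = 0.271, edgeR), with no counts in cfos libraries and 26.7, 16.5 and 0 CPM in mCherry libraries.

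Of 32 genes for granule formation, docking and release 25 were tested, none past the adjusted threshold by edgeR, and their median log2 difference was 0.44 for overlap against mCherry, -0.17 for overlap against cfos and 0.39 for cfos against mCherry. In overlap against mCherry 16 of the 25 had fitted log2 differences above 0, beside 52.3% of all genes. The groups did not overlap for 3 of the 25 higher, beside 13.5% of all genes, and for 5 lower, beside 8.88%. In overlap against cfos this held for 1 higher, beside 13.6%, and for 5 lower, beside 12%. In cfos against mCherry it held for 9 higher, beside 18.5%, and for 4 lower, beside 14.2%. The next counts are again for overlap against mCherry. Of the 25, 1 was higher at an unadjusted p under 0.05, beside 10.1% of all genes, and 0 were lower, beside 4.9%. Rab27a, a GTPase of granule docking, had 14.5, 58.0 and 63.2 CPM in overlap libraries and 0, 2.36 and 3.07 CPM in mCherry libraries (adjusted p = 0.270, edgeR). In cfos libraries Rab27a had 4.21, 15.6 and 17.8 CPM. In cfos against mCherry 2 of the 25 were higher at that p, beside 7.49% of all genes, and 1 was lower, beside 10.2%. Ptprn, which encodes the granule membrane protein IA-2, had 276, 113 and 148 CPM in cfos and 102, 83.8 and 46.0 CPM in mCherry libraries (adjusted p = 0.275, edgeR). Rab3d, a granule GTPase, had 158, 258 and 267 CPM in cfos and 109, 61.4 and 46.0 CPM in mCherry libraries (adjusted p = 0.262, edgeR). The gene on the lower side was Stx6, a SNARE of the trans-Golgi network, with 39.3, 19.3 and 20.1 CPM in cfos and 163, 185 and 289.5 CPM in mCherry libraries (adjusted p = 0.255, edgeR).

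The precursors that these enzymes cut were uneven between libraries of 1 group. Of 27 listed, 11 were tested, 9 of them with fitted log2 differences above 0 in overlap against mCherry, beside 52.3% of all genes, and 4 higher at an unadjusted p under 0.05, beside 10.1%, none past the adjusted threshold by edgeR. Avp, the vasopressin precursor, had 34.4, 172 and 21.1 CPM in overlap libraries, 39.3, 13.8 and 18.5 CPM in cfos libraries and 2.13, 1.18 and 0 CPM in mCherry libraries (adjusted p = 0.257 for overlap against mCherry, edgeR). Crh, the corticotropin-releasing hormone precursor, had 119, 67.1 and 31.6 CPM in overlap libraries, 28.0, 3.01 and 2.31 CPM in cfos libraries and 7.47, 1.18 and 0 CPM in mCherry libraries (adjusted p = 0.275 for overlap against mCherry, edgeR). Both had their highest single library among the overlap libraries, and for both all overlap libraries lay above all mCherry libraries. The other precursors at that p, Pmch and Ghrh, were each at or near 0 in 1 overlap library, Pmch at 65.2, 1.81 and 48.5 CPM and Ghrh at 23.5, 0 and 50.6 CPM, and mCherry libraries had no Pmch count. In cfos against mCherry 10 of 11 precursors had fitted log2 differences above 0, beside 50.9% of all genes, and 4 were higher at an unadjusted p under 0.05, beside 7.49%: Avp, Nucb2, Tac2 and Pmch. In cfos libraries Pmch had 0, 40.9 and 36.7 CPM and Nucb2 had 18.2, 111 and 99.7 CPM. The Pmch difference therefore rested on cfos 2 and cfos 3, which count as 1 replicate. In overlap against cfos 1 of the 11, Ghrh, was higher at that p, beside 8.69% of all genes, and 1, Tac2, was lower, beside 3.14%. Tac2, the neurokinin B precursor, was lower in overlap than in cfos libraries, at 1.81, 1.81 and 4.21 CPM against 126, 24.7 and 26.1 CPM (adjusted p = 0.354, edgeR). Oxt, the oxytocin precursor, showed no such order, with 70.6, 1121 and 156 CPM in overlap libraries, 477, 451 and 539 CPM in cfos libraries and 111, 305 and 398 CPM in mCherry libraries.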

How the data were processed

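The deposited table gives raw counts per gene for 9 libraries, made by the authors with Trim Galore, STAR, UMI-tools and featureCounts on mm10, per the submitters' processing notes. The sources used here do not give versions, annotation or strand setting. Nor do they say whether reads sharing a molecular identifier were collapsed in the deposited counts. PCR copies may be among the counts, and intervals and floors allow for counting error alone. Identifiers were matched to GENCODE M21 (54723 of 54838). The cfos 2 and cfos 3 counts were averaged and rounded, leaving 8 replicates. edgeR 4.0.16 (filterByExpr, TMM, robust quasi-likelihood fit, R 4.3.3) was fitted to 16410 genes with all 3 groups, whose biological coefficient of variation was 0.958; p-values were two-sided and adjusted by Benjamini-Hochberg over all genes, with a threshold of 0.05. CPM values divide a count by the TMM-scaled library size. The smallest count of a member was 0 and a 0 allows 3 counts. The fit was checked on simulated counts, but had to pass only at a spread smaller than that of these data. The check therefore does not show what the fit can call here. DESeq2 1.42.0, other scalings, other filters and left-out libraries were alternatives, and counts of members at unadjusted p-values were added after seeing the data. Promoter windows came from RefSeq (GRCm38.p6). Named were all 10 members, up to 4 genes of smallest p per pathway list and comparison, and the 5 protein-coding genes of nearest pattern to Scg2, Vgf and Pcsk1; Oxt and the genes within Pcsk2 and Pam were added after their values were seen. The members and lists were chosen with earlier results of these data known.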

Additional observations from a re-analysis of the deposited data

How the results depend on the processing

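Over 18 alternatives the 10 genes gave 540 log2 differences; 526 kept their direction and side of the threshold, 8 passed it only under the alternative and 6 changed sign. The sign changes were of Pcsk2 for overlap against mCherry without overlap 3 (0.00076; range -0.97 to 0.00076 with 1 library left out), of Scg3 for overlap against cfos with only those groups fitted (-0.048), of Vgf for overlap against cfos without overlap 1 (-0.44; range -0.44 to 1.37) and without cfos 2 and cfos 3 (-0.18), of Pcsk1 for overlap against cfos without cfos 1 (0.10; range -0.39 to 0.10), and of Cpe for cfos against mCherry without cfos 2 and cfos 3 (-0.085); the cause was not tested. Genes past the adjusted threshold, 0 in each comparison, numbered 905, 893 and 1530 with DESeq2 (overlap against mCherry, overlap against cfos, cfos against mCherry), 484, 214 and 1197 with no count filter, 15 and 247 in the last 2 comparisons with all 9 columns as separate samples, and 2 in cfos against mCherry with a stricter filter. Members past it numbered 2, 2 and 3 with DESeq2 and 1, Scg2 in cfos against mCherry, with no count filter; the cause was not tested. Leaving out any 1 library called 0 genes by edgeR, and unadjusted p under 0.05 then held for 983 to 3239 genes. With the replicate number as a block over all 9 columns 0 genes were called. The labels number the libraries of each group as biological replicates 1 to 3, without saying whether a number is shared across groups. Same-numbered libraries of different groups had correlations of -0.05 to 0.06, and differently numbered ones of -0.06 to 0.06. With cfos 2 and cfos 3 counted as 1 sample and the mCherry libraries not independent, these correlations cannot decide whether the numbers pair the libraries. DESeq2 size factors moved the median of all genes by -0.11, 0.07 and -0.12 in the 3 comparisons and turned no member's direction. The summed share of the 10 genes differed by -0.104 points for overlap against cfos and by 0.120 points for cfos against mCherry, and with 1 library left out ranged from -0.114 to -0.032 and from 0.048 to 0.124 points, -0.032 and 0.048 being the values without cfos 1. Members higher in cfos than mCherry at an unadjusted p under 0.05 numbered 2 to 5 over the alternatives, those lower in overlap than in mCherry 0 to 2, and those lower in overlap than in cfos 2 to 4; all genes at that p, in either direction, made up 9.31 to 25.1%, 6.44 to 18.3% and 8.33 to 18.4% in those comparisons.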
